A study of Mus musculus with 8 samples.

Results

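The mitochondrial ribosomal protein genes were taken as every row annotated to a single gene symbol starting with Mrpl (large subunit) or Mrps (small subunit), and a gene with more than 1 such row was represented by the row with the highest mean over the 8 arrays. The rule gave 68 genes, 43 Mrpl and 25 Mrps, of 14860 genes with a single-gene row on the array. The muscles were tibialis anterior (a shin muscle) of male, 8 weeks old C57BL/6 mice. Into the left leg went 25 µg of pcDNA3, a plasmid with no insert, and into the right leg 25 µg of pCMV-ATF4-FLAG, which expresses the FLAG-tagged transcription factor ATF4 from a CMV promoter active in many cell types, both by electroporation in the living animal. RNA was taken from nonfasting mice at day 11, and 4 such experiments gave 4 empty-vector and 4 ATF4 arrays. Whether each used 1 animal or several pooled is not given in the labels, and leg and plasmid cannot be told apart.

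Mitochondria carry ribosomes of their own, which translate the few proteins encoded in mitochondrial DNA, all of them subunits of the oxidative phosphorylation complexes. Every protein of these ribosomes is encoded in the nucleus, made in the cytosol and imported, while the ribosomal RNAs come from mitochondrial DNA. Some of the proteins are counterparts of bacterial ribosomal proteins and others are found in mitochondria alone. ATF4 is the transcription factor of the integrated stress response, and its known targets are genes of amino acid synthesis and uptake such as Asns.

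Values of 16755 probe sets on a log2 scale were compared as ATF4 minus empty vector within the 4 experiments, so a difference of 1 is a doubling. In this comparison 0 of the 68 mitoribosomal genes passed an adjusted p of 0.05 in limma, and 0.0179% of all probe sets did (3 of 16755). The lowest adjusted p among the 68 was 0.816, for Mrpl16. At an unadjusted p under 0.05 there were 2 genes, Mrpl16 and Mrpl48, both lower with ATF4 and both of the large subunit. That is 2.94% of the 68 genes, beside 6% of all probe sets in either direction and 2.77% lower. The values of the 4 ATF4 arrays and the 4 empty-vector arrays overlapped for all 68 genes, whereas 2.16% of all probe sets had groups that did not overlap.

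The estimates were narrow enough to bound most of these genes. The standard errors of the 68 differences ran from 0.104 to 0.322 on the log2 scale, with a median of 0.136. The 95% interval of the difference lay within a 1.5-fold change in either direction for 55 of 68 genes, 33 of the large and 22 of the small subunit. It lay within a 2-fold change for 67 of 68, the exception being Mrpl51. The estimated difference was under 0.1 in size for 36 genes and over 0.3 for 7, which were 6 Mrpl genes and Mrps17. The differences ranged from -0.40 to 0.23 in the large subunit and from -0.31 to 0.22 in the small subunit. In bulk muscle, fewer cells of a type and less RNA per cell cannot be told apart.

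**Figure D1:**
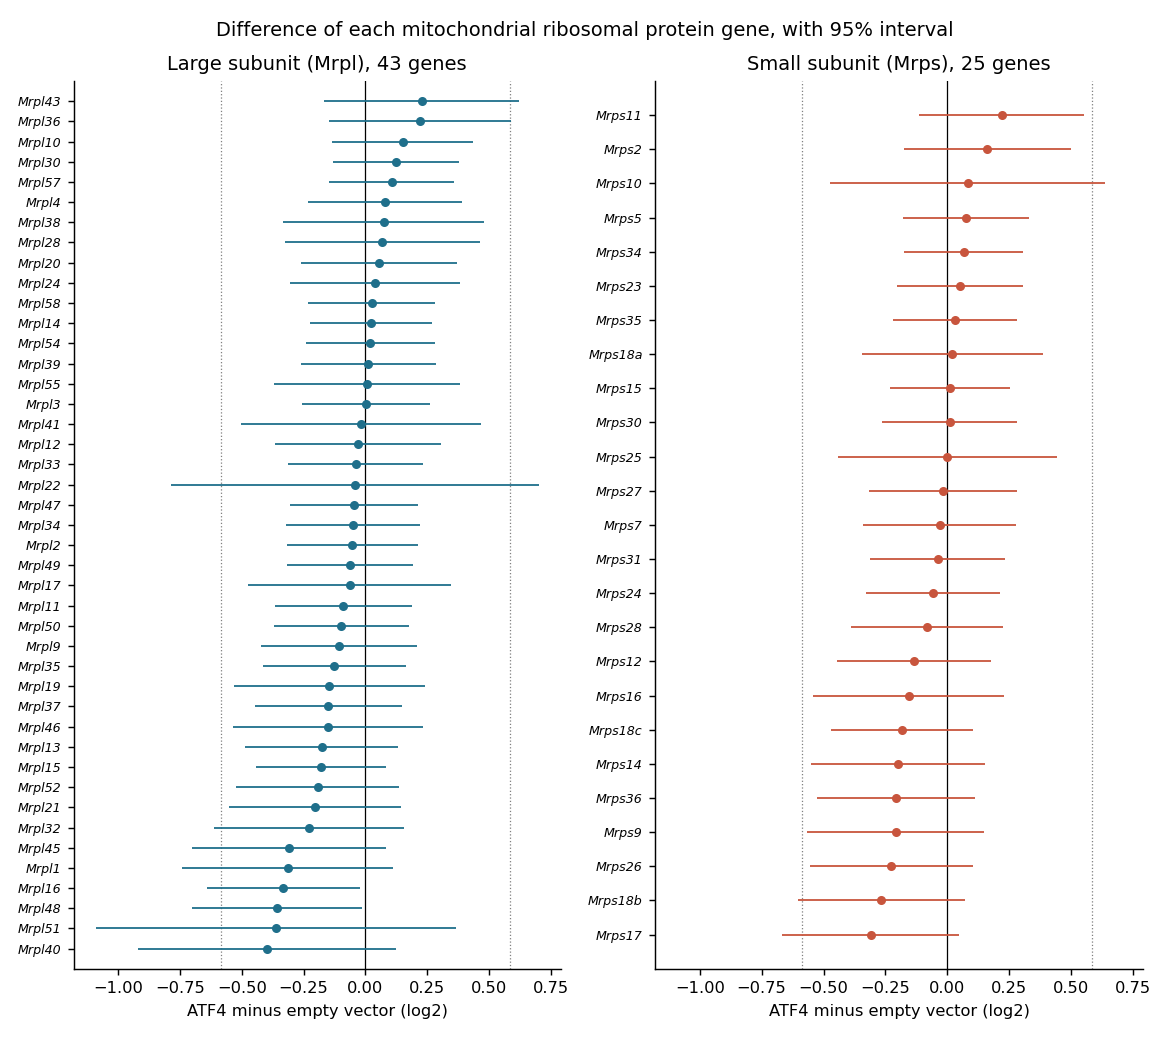
Difference between ATF4 and empty vector (x axis, log2) for the 43 large-subunit genes (left) and the 25 small-subunit genes (right), 1 row per gene. Points are the limma estimates over 4 experiments, bars their 95% intervals, and dotted lines mark a 1.5-fold change; the intervals of 2 genes, Mrpl16 and Mrpl48, exclude 0.

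ATF4 target genes served as a measure of what the same arrays showed elsewhere. Of 18 measured targets 15 had higher values with ATF4, 7 of them at an unadjusted p under 0.05 in limma, and 0 passed the adjusted threshold. Of all 16755 probe sets 9126 were higher, 542 of them at an unadjusted p under 0.05. The 3 lower targets were Vldlr (-0.37), Cebpb (-0.07) and Ddit4 (-0.06), and Ddit3 (0.08) and Chac1 (0.07) were near 0. Asns, which makes asparagine, was higher by 1.19 (SE 0.14, n = 4 experiments, adjusted p = 0.0741) and higher in each of the 4 experiments. The largest difference among the mitoribosomal genes in either direction, that of Mrpl40, was -0.40. The row for Atf4 itself was higher by 0.18 (SE 0.11, adjusted p = 0.846), and was higher in experiments 1 to 3 but lower by 0.05 in experiment 4.

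Promoter sequence was read for 59 of the 68 genes from RefSeq (GRCm38.p6), as windows from 250 bases before to 50 bases after a transcription start, and motif letters were searched on both strands. These letters are shown because nuclear genes for mitochondrial proteins are known for binding sites of ETS family factors such as NRF2, of NRF1 and of YY1, and ATF4 with a C/EBP partner is known to bind a composite site. The ETS letters CCGGAAG were in 20 of the 59 genes (33.9%) and in 12.9% of all 17491 protein-coding genes with a window. The YY1 letters AAGATGG were in 12 genes (20.3%), beside 7.18% of all. The NRF1 letters GCATGCGC were in 8 genes (13.6%), beside 3.93% of all. They were in 7 of the 37 large-subunit genes and 1 of the 22 small-subunit genes with a window, a split that was not tested. The composite letters TGATGNAAN were in 0 of the 59 genes, beside 4.11% of all and 6 of 14 ATF4 targets. Base composition moves these shares. A second comparison took genes with a window at or above the median GC content of the mitoribosomal windows (58.3%). The ETS letters were in 18.2% of them, the YY1 letters in 6.57%, the NRF1 letters in 5.41% and the composite letters in 1.32%. Windows below that content were left out for these genes but kept for the mitoribosomal genes, so the 2 sets are not matched in GC content. The palindromic letters TGACGTCA, the cyclic AMP response element, were in 2 genes, Mrpl16 and Mrpl49 (3.39%), beside 2.54% of all, and TATAAA was in 5 genes (8.47%), beside 14.8%. A match is a description of the letters and not a bound site.

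Of the sequences below, the first is Mrpl16, the gene of lowest p among the 68, the next 3 are members that combine 2 of the motifs, and the last is Asns, which holds the composite letters and stands for comparison. Capitals mark the motif matches listed here (on either strand), while the TATAAA of Mrpl16 is left in lower case, each sequence is 100 bases on the strand of its gene, and positions count from the transcription start base as 0 with negative numbers upstream. In Mrpl16 (chr19:11770320-11770419, plus strand) the response element starts at -49. In Mrpl22 (chr11:58171575-58171674, plus strand) the ETS letters start at -53 and the NRF1 letters at -33. In Mrps18a (chr17:46110950-46111049, plus strand) the ETS letters start at -26 and the YY1 letters at 11. In Mrps27 (chr13:99344722-99344821, plus strand) they start at -48 and 14, and in Asns (chr6:7693179-7693278, minus strand) the composite letters start at -23.
Mrpl16: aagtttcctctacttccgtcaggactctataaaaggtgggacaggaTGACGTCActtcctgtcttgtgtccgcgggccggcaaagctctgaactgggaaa
Mrpl22: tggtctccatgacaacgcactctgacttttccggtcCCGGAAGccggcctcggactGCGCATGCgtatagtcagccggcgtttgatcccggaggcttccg
Mrps18a: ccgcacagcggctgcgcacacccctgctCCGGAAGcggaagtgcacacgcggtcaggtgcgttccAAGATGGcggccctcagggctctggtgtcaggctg
Mrps27: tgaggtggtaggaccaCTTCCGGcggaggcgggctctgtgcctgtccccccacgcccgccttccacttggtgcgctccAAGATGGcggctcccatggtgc
Asns: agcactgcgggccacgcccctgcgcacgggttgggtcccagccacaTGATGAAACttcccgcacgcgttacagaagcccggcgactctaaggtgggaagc

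**Figure D2:**
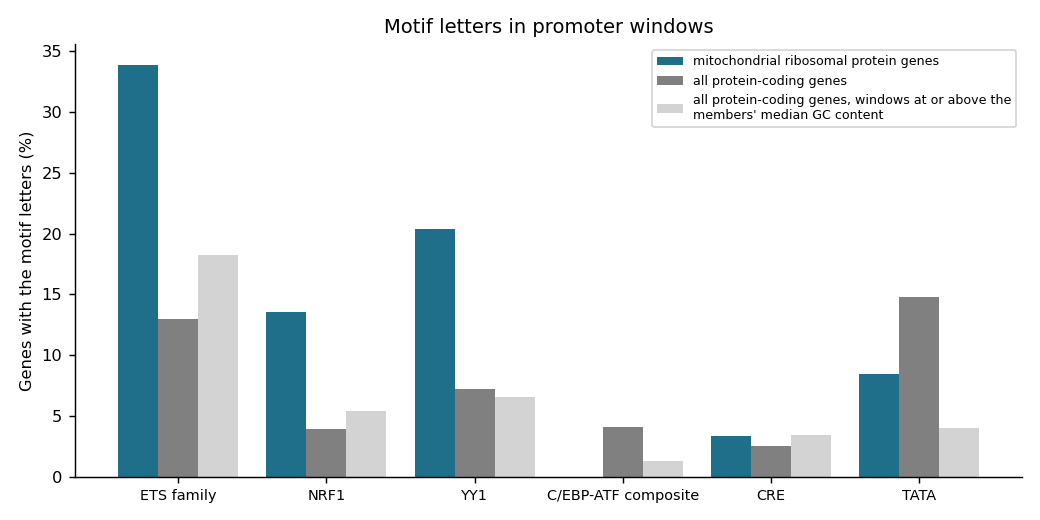
Share of genes (y axis, %) whose promoter window holds each set of motif letters, for the 59 mitoribosomal genes, for all 17491 protein-coding genes and for the 8209 genes with a window at or above the median GC content of the mitoribosomal windows. The ETS, NRF1 and YY1 letters were in a larger share of the mitoribosomal genes than of all genes, and the composite letters were in 0 of them.

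Both subunits had small median differences that turned sign between experiments. The median over the 43 large-subunit genes was -0.08, -0.08, 0.07 and -0.17 in experiments 1 to 4, a mean of -0.06 ± 0.10 (SD, n = 4). The median over the 25 small-subunit genes was -0.11, 0.08, 0.06 and -0.06, a mean of -0.01 ± 0.09. Large minus small was 0.03, -0.15, 0.01 and -0.12, so the large subunit had the higher median in 2 of 4 experiments. The mean was -0.06 ± 0.09, where 0.09 is the SD of single experiments and not the error of the mean. The difference between the subunits was not tested. The median over all probe sets was -0.01, 0.00, 0.01 and 0.08. Over the 4-experiment averages the medians were -0.05 for the large subunit, -0.03 for the small subunit and 0.02 for all probe sets, and both subunit medians were above 0 (0.02 each) after quantile normalization.

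**Figure D3:**
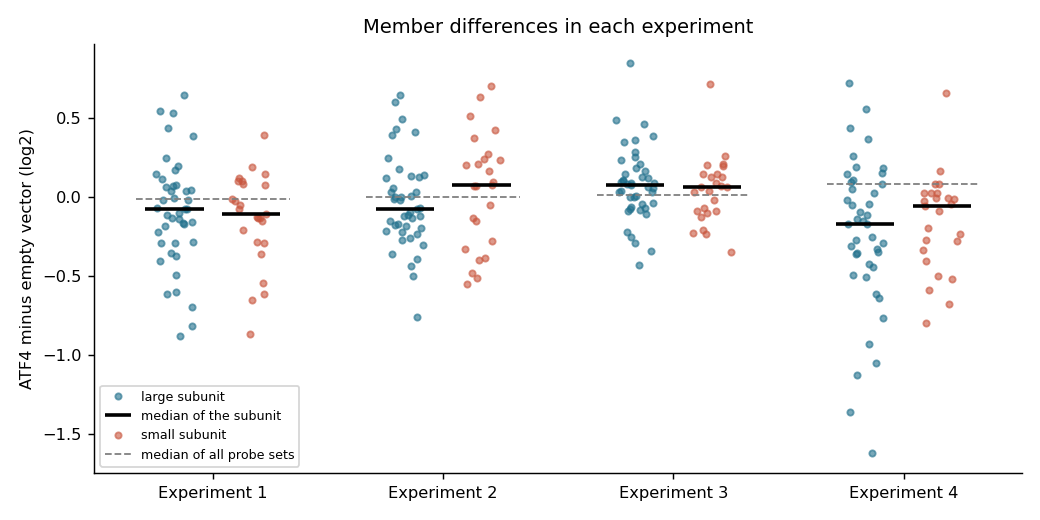
Difference between ATF4 and empty vector (y axis, log2) of each large-subunit and small-subunit gene in each of the 4 experiments, with points spread sideways for legibility. Black bars are the subunit medians and dashed lines the median of all probe sets; both subunit medians were above 0 in experiment 3 and below 0 in experiments 1 and 4, and they lay on opposite sides of 0 in experiment 2.

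Averaged over experiments, 41 of the 68 genes (60.3%) were lower with ATF4, 27 of 43 in the large subunit and 14 of 25 in the small subunit, beside 45.5% of all probe sets. The split depended on the scaling of the arrays, with 52 of 68 lower after median centring and 32 of 68 after quantile normalization. Of the 68 rows 64 lay above the median level of all probe sets, and 53.9% of the 8378 probe sets above that level were lower with ATF4. By experiment, 44, 37, 25 and 47 of the 68 genes were lower (64.7%, 54.4%, 36.8% and 69.1%). The shares were 51.9%, 49.8%, 47.4% and 42.8% of all probe sets, and 48.4%, 49.1%, 52.3% and 56.7% of those above the median level. A gene had the same direction in all 4 experiments for 2 of 68, Mrpl57 (higher) and Mrpl15 (lower, picked out after its values were seen), and the share over all probe sets was 14.9%.

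Experiment 4 held the widest spread. The difference there was the lowest of the 4 for 33 of the 68 genes, against 17 in experiment 1, 14 in experiment 2 and 4 in experiment 3. The difference exceeded 1.5-fold in size for 13 genes in experiment 4, for 9 in experiment 1, for 5 in experiment 2 and for 2 in experiment 3. These counts have no share over all probe sets beside them, so they cannot be read as particular to these genes. The ATF4 array of experiment 4 had an SD of 1.14 over all probe sets and its partner 1.31, while the other 6 arrays lay between 1.11 and 1.32. Over the probe sets above the median level, the median difference in experiment 4 was -0.07, and in the other 3 experiments it lay between -0.01 and 0.01. The part of array spread in the result was not tested. Without experiment 4 the median over the 68 genes was -0.01 and 35 of 68 were lower, against -0.04 and 41 of 68 with it.

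The level of these genes also varied between experiments. The SD over the 4 empty-vector arrays was larger than the size of the mean plasmid difference for 60 of the 68 genes (88.2%). The share was 79.7% of all probe sets and 78.1% of those above the median level. An SD of single arrays tends to exceed a mean difference over 4 experiments without any plasmid effect. These shares thus do not weigh experiment against plasmid. In the empty-vector muscles the median over the 68 genes was 5.69, 5.44, 5.72 and 5.93 in experiments 1 to 4, and in the ATF4 muscles it was 5.51, 5.43, 5.72 and 5.74. Experiment 2 was thus the lowest in either group. For 50 of the 68 genes (73.5%) the mean of the 2 arrays of an experiment was lowest in experiment 2, with 32 in the large and 18 in the small subunit, beside 25.7% of all probe sets and 41.1% of those above the median level. The empty-vector array of experiment 4 was the highest of all 8 for 30 genes (44.1%), beside 17.7% of all probe sets and 27.7% of those above the median level. The 2 arrays of experiment 2 had SDs over all probe sets of 1.11 and 1.12, below those of the other 6, and the part of this in the levels was not tested.

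Among the large-subunit genes, Mrpl16 encodes the counterpart of bacterial L16, which lies close to the catalytic centre of the ribosome. Its log2 values in experiments 1 to 4 were 6.25, 5.83, 6.43 and 6.67 with empty vector and 5.96, 5.86, 6.00 and 6.04 with ATF4. The empty-vector value was higher in experiments 1, 3 and 4, and nearly equal in experiment 2, where it was also the lowest of the 8. The difference was -0.33 (SE 0.13, 95% interval -0.64 to -0.02, adjusted p = 0.816 in limma). Mrpl48, a mitochondria-specific protein of the central protuberance at the top of the large subunit, had 5.47, 5.65, 5.77 and 5.79 with empty vector and 4.65, 5.35, 5.43 and 5.82 with ATF4. It was lower in experiments 1 to 3, most of all in experiment 1, and the highest of the 8 values was the ATF4 array of experiment 4. Its difference was -0.36 (SE 0.15, 95% interval -0.70 to -0.02, adjusted p = 0.822 in limma). A second single-gene row of Mrpl48, with a mean log2 value of 2.23, gave -0.92 (SE 0.38, adjusted p = 0.822), with -1.97, -1.73, 0.27 and -0.27 by experiment.

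The other 3 large-subunit genes of lowest p in that direction had their largest difference in experiment 4. Mrpl40, another protein of the central protuberance, had 5.02, 4.63, 5.10 and 5.80 with empty vector and 4.32, 4.51, 5.46 and 4.67 with ATF4. The difference was -0.70, -0.12, 0.36 and -1.13 in experiments 1 to 4, for an average of -0.40 (SE 0.23, adjusted p = 0.846). Mrpl45, which lies at the exit of the peptide tunnel and faces the inner membrane, had 5.25, 4.72, 4.77 and 5.52 with empty vector and 4.95, 4.75, 4.72 and 4.59 with ATF4. Its values in experiments 2 and 3 were within 0.05 of each other between the muscles, and the average was -0.31 (SE 0.17). Mrpl1, the counterpart of bacterial L1 at the side where spent tRNA leaves, had 5.40, 5.04, 5.55 and 6.23 against 5.28, 4.92, 5.59 and 5.18. Its average of -0.31 (SE 0.19) came with a difference of -1.05 in experiment 4 and of -0.12 to 0.03 in the other 3.

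The 5 large-subunit genes of lowest p in the upward direction were Mrpl43, Mrpl36, Mrpl10, Mrpl30 and Mrpl57, with adjusted p between 0.853 and 0.888. Mrpl43, a mitochondria-specific protein, had 4.40, 5.09, 4.88 and 4.80 with empty vector and 5.04, 5.01, 4.66 and 5.35 with ATF4, a difference of 0.23 (SE 0.17). It was higher in experiments 1 and 4 and lower in experiments 2 and 3. Mrpl36, the counterpart of a small bacterial protein, was higher by 0.35 and 0.72 in experiments 3 and 4 and lower by 0.07 and 0.11 in experiments 1 and 2, with an average of 0.22 (SE 0.16). Mrpl30 differed by 0.07, -0.01, 0.07 and 0.36 in experiments 1 to 4, an average of 0.12 (SE 0.11). Mrpl57, also specific to mitochondria, had 5.44, 4.49, 5.27 and 5.20 against 5.48, 4.73, 5.33 and 5.28, and was higher by 0.04, 0.25, 0.06 and 0.08. Its average of 0.11 (SE 0.11) was small beside the range of the empty-vector arrays, in which experiment 2 was lowest. Mrpl15, the gene that was lower in each experiment, differed by -0.13, -0.22, -0.00 and -0.36, an average of -0.18 (SE 0.11).

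Further large-subunit genes are given beside those above by the place of their proteins (Mrpl2, Mrpl3, Mrpl11, Mrpl24, Mrpl38, Mrpl46 and Mrpl58 were picked with their values known, so the groups are not complete lists). In the stalk that recruits translation factors, Mrpl10 differed by 0.15 (SE 0.12), Mrpl11 by -0.09 (SE 0.12) and Mrpl12 by -0.03 (SE 0.15). Mrpl12, the counterpart of bacterial L7/L12, had 7.05, 6.86, 6.83 and 7.10 with empty vector and 6.98, 6.46, 6.75 and 7.53 with ATF4, so that experiment 2 and experiment 4 lay on opposite sides. In the central protuberance Mrpl38 differed by 0.07 (SE 0.18) and Mrpl46 by -0.15 (SE 0.17), beside the -0.40 of Mrpl40 and the -0.36 of Mrpl48. Around the tunnel exit Mrpl24 differed by 0.04 (SE 0.15), Mrpl17 by -0.06 (SE 0.18) and Mrpl22 by -0.04 (SE 0.32), beside the -0.31 of Mrpl45. Near the catalytic centre Mrpl2 differed by -0.05 (SE 0.12) and Mrpl3 by 0.00 (SE 0.11), beside the -0.33 of Mrpl16. Mrpl58, a peptidyl-tRNA hydrolase that became part of the ribosome, differed by 0.03 (SE 0.11).

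Mrpl22 and Mrpl51 were the least precise of the large subunit. Mrpl22 had 2.87, 3.66, 3.25 and 4.98 with empty vector and 3.40, 3.48, 4.10 and 3.62 with ATF4, and its differences of 0.53, -0.18, 0.85 and -1.36 changed sign between experiments. Its row lay at the 21.4 percentile of all levels. Mrpl51, a mitochondria-specific protein, differed by -0.62, 0.41, 0.39 and -1.62, an average of -0.36 (SE 0.32, 95% interval -1.09 to 0.37).

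**Figure D4:**
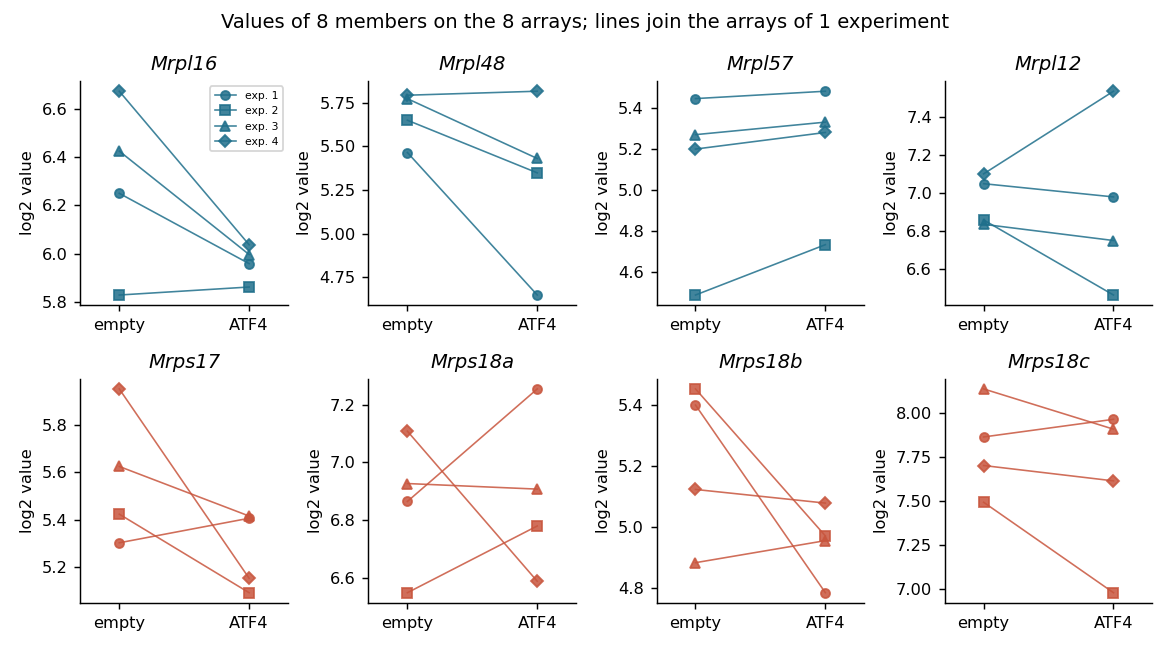
Log2 values (y axis, a separate scale per panel) of 4 large-subunit genes (top) and 4 small-subunit genes (bottom) on the 8 arrays, with a line joining the empty-vector and ATF4 arrays of an experiment and a marker shape per experiment. Lines of both slopes are seen in every panel except that of Mrpl57, whose 4 differences were between 0.04 and 0.25.

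In the small subunit the lowest p belonged to Mrps17, the counterpart of bacterial S17, with an adjusted p of 0.846 in limma. Its values were 5.30, 5.42, 5.62 and 5.95 with empty vector and 5.41, 5.09, 5.41 and 5.15 with ATF4. It was higher by 0.10 in experiment 1 and lower in the other 3, by up to 0.80 in experiment 4, for an average of -0.31 (SE 0.16, 95% interval -0.67 to 0.05). Mrps26, a mitochondria-specific protein, had 6.09, 5.61, 6.04 and 5.93 against 5.44, 5.33, 6.08 and 5.93, and differed by -0.23 (SE 0.14). Its difference lay in experiments 1 and 2, and the values of experiments 3 and 4 were within 0.04 of each other between the muscles. In the upward direction Mrps11, a counterpart of bacterial S11 on the platform of the subunit, had 5.17, 5.32, 5.17 and 4.69 against 5.36, 5.48, 5.05 and 5.35. It differed by 0.19, 0.16, -0.13 and 0.66 in experiments 1 to 4, an average of 0.22 (SE 0.14). Mrps2 differed by 0.16 (SE 0.15), with 0.63 in experiment 2, where its empty-vector value of 4.83 was the lowest of the 8. Mrps5, which lies by the channel where the messenger enters, and the mitochondria-specific Mrps34 and Mrps23 differed by 0.07 (SE 0.11), 0.07 (SE 0.10) and 0.05 (SE 0.11).

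Other small-subunit genes spread around 0 as well. Mrps12, the counterpart of bacterial S12 at the decoding centre, had 6.94, 6.75, 6.98 and 7.18 with empty vector and 6.86, 6.36, 7.24 and 6.84 with ATF4, a difference of -0.13 (SE 0.14). Among proteins of the head of the subunit (picked with their values known, apart from Mrps10), Mrps7 differed by -0.03 (SE 0.13), Mrps9 by -0.21 (SE 0.16), Mrps10 by 0.08 (SE 0.24) and Mrps14 by -0.20 (SE 0.15). Mrps10 held the largest spread of the small subunit, with differences of -0.87, 0.51, 0.71 and -0.03, followed by Mrps25 with -0.29, 0.70, 0.09 and -0.50. Mrps27, a protein with RNA-binding pentatricopeptide repeats, differed by -0.02 (SE 0.13).

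The 3 Mrps18 genes encode paralogs that take different places, and 2 more Mrps genes are named for a subunit their proteins are not part of. Mrps18a and Mrps30 proteins sit in the large subunit, and the Mrps36 protein is a component of the 2-oxoglutarate dehydrogenase complex. Mrps18b, which stays in the small subunit, had 5.40, 5.45, 4.88 and 5.12 against 4.78, 4.97, 4.95 and 5.08, lower by 0.61 and 0.48 in experiments 1 and 2 and by 0.04 in experiment 4, for an average of -0.27 (SE 0.15, adjusted p = 0.846). Mrps18c, also of the small subunit, differed by -0.18 (SE 0.12). Mrps18a had 6.86, 6.55, 6.93 and 7.11 against 7.25, 6.78, 6.91 and 6.59, so that differences of 0.39 and 0.23 in experiments 1 and 2 stood against -0.52 in experiment 4, with an average of 0.02 (SE 0.16). Mrps30 differed by 0.01 (SE 0.12), and Mrps36 by -0.21 (SE 0.14), with -0.36 and -0.55 in experiments 1 and 2. With genes placed by where their proteins sit (45 large, 22 small), large minus small was 0.04, -0.14, 0.02 and -0.12, a mean of -0.05 ± 0.10 (SD, n = 4).

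The genes were also grouped by the family assigned to their proteins. Of the Mrps18 paralogs, Mrps18c was counted as a counterpart of a bacterial protein, and Mrps18a and Mrps18b as mitochondria-specific. The mitochondria-specific groups thus hold paralogs of a bacterial counterpart. In the large subunit the median difference was -0.05 over 27 counterparts of bacterial proteins (17 lower) and -0.04 over 18 mitochondria-specific proteins (10 lower). In the small subunit it was -0.07 over 14 counterparts of bacterial proteins (9 lower) and -0.01 over 8 mitochondria-specific proteins (4 lower). The last 8 were all lower in experiment 1 and 0 of them were lower in experiment 3. Of all 68 genes 64.7% and 36.8% were lower in these 2 experiments, and of all probe sets 51.9% and 47.4%. Over the 4 experiments the group medians averaged -0.09 ± 0.14, -0.04 ± 0.11, -0.04 ± 0.13 and -0.01 ± 0.12 (SD, n = 4) in the same order. Differences between the groups were not tested.

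Of the 78 protein-coding genes named Mrpl or Mrps in RefSeq, 3 were measured only by a row shared with another gene. The row of Mrps6 and Slc5a3 differed by -0.13 (SE 0.12), that of Mrpl53 and Ccdc142 by 0.11 (SE 0.12) and that of Mrps22 and Capza1 by 0.13 (SE 0.14). Their signal cannot be split between the genes. The other 7, Mrpl18, Mrpl23, Mrpl27, Mrpl42, Mrpl44, Mrps21 and Mrps33, were not analysed here. Of 5 mitoribosomal proteins with other symbols 3 were measured and 0 were called. Ptcd3, the pentatricopeptide repeat partner of the small subunit, differed by -0.13 (SE 0.14), Chchd1 by -0.11 (SE 0.16) and Gadd45gip1 by -0.01 (SE 0.11).

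The factors that work with the mitoribosome had 0 called genes in each list, and at an unadjusted p under 0.05 there were also 0. Of 15 translation factors 7 were higher, with a median difference of -0.03, and the median in experiment 4 was -0.49 where the other 3 experiments gave 0.01 to 0.10. Gfm1, the elongation factor that moves the ribosome along, was lower in each experiment, by 0.04, 0.14, 0.22 and 0.64 (average -0.26, SE 0.13, adjusted p = 0.846). Mtif2, the initiation factor, differed by -0.21 (SE 0.12). Tufm, the factor that delivers aminoacyl-tRNA, differed by 0.67 (SE 0.30, adjusted p = 0.842) from a row with a mean log2 value of 2.15, with differences from -0.26 to 1.55. Of 18 measured genes for mitoribosome assembly and rRNA modification 6 were higher, with a median of -0.04. Mrm1, an rRNA methyltransferase, was higher in each experiment (0.25, SE 0.12), while the GTPase Noa1 (-0.22, SE 0.12) and the pseudouridine synthase Rpusd4 (-0.20, SE 0.12) were lower in each.

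In 3 further lists of genes for mitochondria the medians were close to 0, while single genes differed by up to 0.25 in size. Of these genes 0 had an unadjusted p under 0.05 in limma. Of 11 genes for maintenance and transcription of mitochondrial DNA 6 were higher (median 0.02). They included the helicase Supv3l1 at -0.10 (SE 0.11), the DNA polymerase Polg at -0.08 (SE 0.11) and the helicase Twnk at 0.10 (SE 0.13). Of 15 mitochondrial tRNA synthetases 9 were higher (median 0.01), with Sars2 at 0.25 (SE 0.17), Yars2 at -0.16 (SE 0.13) and Ears2 at 0.15 (SE 0.15). Of 9 regulators of nuclear genes for mitochondria 4 were higher (median -0.01). Yy1, whose letters were searched above, differed by -0.21 (SE 0.12), and the coactivators Ppargc1a and Ppargc1b by -0.15 (SE 0.12) and 0.16 (SE 0.14).

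Beside these, 39 of 54 measured oxidative phosphorylation subunits were lower with ATF4 (median -0.06), with a median of -0.20 in experiment 4 and of -0.01 to -0.00 in the other 3. Only 20 of 85 listed cytosolic ribosomal proteins were measured, so they do not stand for the whole cytosolic ribosome. Their mean log2 values ran from 2.84 to 9.48. Of these 20, 13 were lower (median -0.16), and the medians were 0.06, -0.09, -0.02 and -0.31 in experiments 1 to 4. The 1 gene with an unadjusted p under 0.05 in limma, Rps20, was higher (0.93, SE 0.28, adjusted p = 0.754). The lowest of the 4 experiment medians fell in experiment 4 for these 2 sets, for the translation factors and for the large mitoribosomal subunit, and in experiment 1 for the small subunit. The median over the ATF4 targets was 0.26, 0.36, 0.27 and 0.26 in experiments 1 to 4.

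**Figure D5:**
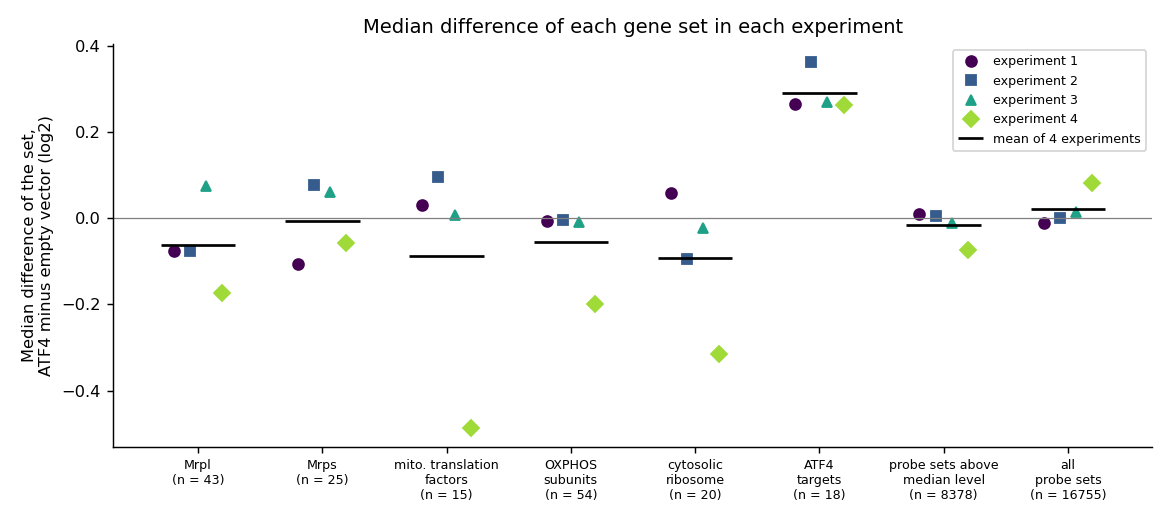
Median difference between ATF4 and empty vector (y axis, log2) over the measured genes of each set, with 1 marker per experiment and a bar at the mean of the 4 experiments. Both mitoribosomal subunits lay on either side of 0, the ATF4 targets lay between 0.26 and 0.36, and the mitochondrial translation factors were at -0.49 in experiment 4.

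The tissue label was borne out by 12 of 12 measured muscle fibre markers, whose mean log2 value was 9.75 to 9.88 on the empty-vector arrays and 9.69 to 9.93 on the ATF4 arrays. The mean difference of these markers was 0.05, -0.06, -0.03 and -0.13 in experiments 1 to 4. Over 11 macrophage markers it was 0.35, 0.42, 0.03 and 0.04, with means of 5.86 to 6.87 on the empty-vector arrays and 5.90 to 6.90 on the ATF4 arrays. Over 9 fibroblast markers it was 0.20, -0.01, -0.08 and 0.49, with means of 6.19 to 6.56 and 6.24 to 6.68. Over 7 endothelial markers it was -0.03, -0.11, -0.19 and -0.14, below 0 in all 4 experiments, with means of 5.25 to 5.54 and 5.14 to 5.40. The mean difference lay between -0.09 and 0.18 over 6 T cell markers, between -0.22 and 0.17 over 6 adipocyte markers, between -0.02 and 0.21 over 4 Schwann cell markers and between -0.10 and 0.04 over 7 markers of proliferating cells. None of the 8 marker lists held a gene that passed the adjusted threshold in limma, and an unadjusted p under 0.05 was reached by 2 macrophage markers and 1 each of the fibroblast and Schwann cell lists (higher) and of the endothelial and adipocyte lists (lower). The medians of the mitoribosomal genes were -0.09, -0.01, 0.06 and -0.15 in experiments 1 to 4, lowest in experiment 4. In that experiment the fibroblast (0.49), Schwann cell (0.21) and proliferating cell (0.04) markers had their highest mean difference. The muscle fibre (-0.13) and T cell (-0.09) markers had their lowest there, and the other lists had neither. The part of other cells in the mitoribosomal values was not tested.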

How the data were processed

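RNA of 8 muscles was amplified by single-primer isothermal amplification and, per the labels' protocols, put on mouse exon arrays. The authors deposited log2 values made with RMA, per the submitters' processing notes, which also name hg18, so no array coordinates are given. RMA sets arrays toward 1 scale, so a shift shared by most genes cannot be told from a difference in scale. Differences in scale remained in the deposited values. Over all probe sets the array medians ran from 4.29 to 4.44 and the SDs from 1.11 to 1.32. Arrays give no read depth, and their number limits the precision.

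All 16755 probe sets were fitted in limma 3.58.1 (R 4.3.3, statmod 1.5.0) with plasmid and experiment as fixed terms and moderated variances with a trend on mean level. Tests were two-sided, with Benjamini-Hochberg adjustment over all probe sets and a threshold of 0.05. The script was tested on simulated data. P-values measure the spread between experiments, whose source animals the labels do not give. Pairing comes from the series design, which sets the right muscle against the left within each experiment. Deviations from the group means of paired arrays correlated at 0.07, 0.31, 0.55 and 0.05 in experiments 1 to 4.

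The members, gene lists, motifs and tests were chosen with earlier results of these data known. Named were, per subunit and direction, the 5 members of smallest p; per subunit, the 2 highest and 2 lowest in level and the 2 with the largest spread of the difference; Mrps18a, Mrps18b, Mrps18c, Mrps30 and Mrps36; Atf4; and up to 3 genes of smallest p per list. The annotation's Entrez identifiers of all 68 members matched RefSeq. Sequences came from RefSeq, GRCm38.p6. Alternatives were no block, a random block, each experiment left out, median centring, quantile normalization, a filter on the dimmest 25% of probe sets, no trend and an average over all rows of a gene.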

Additional observations from a re-analysis of the deposited data

Results flagged for a closer look

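In groups of 4 arrays, an array far from the other 3 was found in 5 of 108 groups tested, and chance flags about 1 in 20, or 5. For Mrpl17 the empty-vector array of experiment 2 was at 4.71, where the others were at 4.07 to 4.12. For Mrps27 the empty-vector array of experiment 4 was at 4.08, with the others at 3.66 to 3.70. For the helicase gene Supv3l1 the same array was at 5.51, with the others at 4.92 to 4.99. For the DNA polymerase gene Polg the ATF4 array of experiment 1 was at 4.34, with the others at 4.59 to 4.63. For the tRNA synthetase gene Sars2 that array was at 4.36, with the others at 4.71 to 4.78.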

How the results depend on the processing

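The number of called mitoribosomal genes was 0 under each of the 11 alternatives. Without the replicate block (experiment as a pair) 0 members had an unadjusted p under 0.05 and 3 probe sets were called, and the median of the members stayed at -0.04. With experiment as a random block 13 probe sets were called and 1 member had p under 0.05, and Asns and Slc7a5 passed the threshold (adjusted p = 0.0289 and 0.0391). Leaving out an experiment called 0 to 2 probe sets, 0 without experiments 1, 3 and 4, with 1 member at p under 0.05 each time. Median centring and dropping the trend called 0, quantile normalization 2, the mean of probe sets 3 and the filter on dim probe sets 7, with Asns at 0.0329. Members at p under 0.05 numbered 0 with quantile normalization, 1 without the trend and 2 with median centring, the dim filter (66 members left) and the mean of probe sets.

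The median of the members was -0.08 after median centring and 0.02 after quantile normalization. Leaving out an experiment gave -0.10 to -0.01 for the members and 35 to 47 members lower, -0.11 to -0.02 for the large subunit and -0.05 to 0.02 for the small subunit. Median centring turned Mrps18a to -0.017, Mrps30 to -0.028 and Mrps25 to -0.037. Quantile normalization turned Mrpl12 to 0.068, Mrps30 to -0.016 and Gadd45gip1 to 0.071. Leaving out an experiment turned the sign of 14 named genes, with ranges of -0.10 to 0.056 for Mrps27, -0.10 to 0.20 for Mrps18a, -0.25 to 0.056 for Chchd1, -0.063 to 0.055 for Gadd45gip1, -0.27 to 0.081 for Mrpl17, -0.13 to 0.40 for Mrps10, -0.18 to 0.093 for Mrpl12, -0.34 to 0.40 for Mrpl22, -0.053 to 0.080 for Mrps30, -0.23 to 0.17 for Mrps25, -0.62 to 0.060 for Mrpl51, -0.22 to 0.0064 for Ptcd3, -0.0098 to 0.19 for Twnk and -0.010 to 0.26 for Ears2. The cause of these turns was not tested, and the estimates lay near 0 beside their errors. The arrays number 4 per group, which limits the precision.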
